A study of Homo sapiens with 4 samples.

Results

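The neuropeptide precursors of sympathetic cells were followed in SK-N-BE(2) cells, an established neuroblastoma line with amplified MYCN, after knockdown of TTC8. The members were 10 genes named by symbol (NPY, GAL, VIP, SST, TAC1, ADCYAP1, PENK, CARTPT, NMU and NPW), out of 64252 gene IDs in the count table, and all 10 matched an ID. The control cells carried a scramble short hairpin RNA (shScb) and the knockdown cells a hairpin against TTC8 (shTTC8), with 2 RNA-seq libraries for each. Both groups were the same cell line, both had received a hairpin, and the labels state no other treatment. The labels give neither the number of hairpins nor whether the libraries came from separate cultures. The p-values therefore measure only the spread between these libraries, which may be technical, and an off-target effect of a hairpin cannot be told apart from loss of TTC8. In bulk RNA, fewer cells that express a gene and less RNA per cell cannot be told apart.

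Neuropeptides are made as longer precursors that enter the secretory pathway. They are cut at basic residues by prohormone convertases, trimmed by carboxypeptidase E, often amidated by PAM, and stored in dense-core granules until release. They then act on G protein-coupled receptors of the same or neighbouring cells. Postganglionic sympathetic neurons release NPY together with noradrenaline, cholinergic sympathetic neurons are known for VIP, and tumours of this lineage are known to secrete peptides of both kinds. Transcription of several of these genes, SST and VIP among them, is known to respond to cyclic AMP through a cAMP response element (CRE), the binding site of the CREB family.

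TTC8, a subunit of the BBSome that carries membrane proteins through the primary cilium, had 9888 and 10398 counts with shScb against 1130 and 1268 with shTTC8. Its normalised level stood at 0.154 of control. Totals ran from 38284663 to 55331449 counts per library, with the shTTC8 libraries the shallower. Values below are CPM, counts scaled to a library of 1000000, on library sizes adjusted by TMM, a factor that corrects for RNA composition. A gene was called when its adjusted p in edgeR's quasi-likelihood test of 19610 genes was under 0.05, and 31.9% of the tested genes were called, 15.2% higher and 16.7% lower in shTTC8. All 8 markers of sympathetic neuroblasts were expressed, including TH and DBH, enzymes of noradrenaline synthesis, at 436 and 135 CPM in shTTC8 against 561 and 234 CPM in shScb. Of these 8 markers edgeR called 5 lower and 1 higher, and their summed level was 4868 and 4923 CPM in shScb and 4154 and 4324 CPM in shTTC8. Their part in the members' changes was not tested.

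The precursors split into losses and gains. Transcripts of NPY, VIP, ADCYAP1, NPW and GAL fell in shTTC8, while SST and CARTPT, both without a single count in shScb, were present in both shTTC8 libraries and PENK rose. NMU was not called and TAC1 had 0 counts in every library. Of 9 members that passed the low-count filter, 3 were called higher and 5 lower, beside the 31.9% called among all tested genes. SST and CARTPT passed that filter through the shTTC8 libraries alone and so had to differ. Of the other 7 tested members, 6 were called. Calls of at least 2-fold numbered 4 among those 7, beside 5.29% of all tested genes. The groups did not overlap for any of the 7, beside 65.5% of all tested genes. The members were chosen with earlier results of these data known, so shares above those of all genes can come from that choice. The median log2 fold change of the 9 was -0.26, also with SST and CARTPT set at the lower bounds given below, beside 0.004 over all tested genes.

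**Figure D1:**
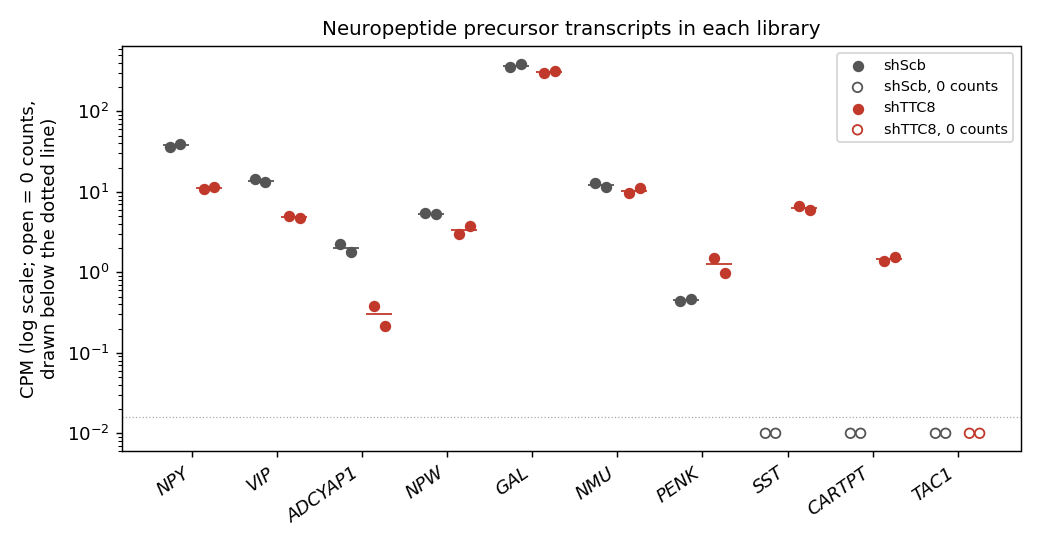
CPM of the 10 precursors on a log axis, with 1 point per library, a line at each group's mean, shScb in grey and shTTC8 in red; open circles below the dotted line are libraries with 0 counts. The groups lie apart for the 9 genes with counts, most widely for SST and CARTPT, and GAL stands above all others in each library.

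Stretches upstream of 3 of these genes are shown because they hold the CRE or its shorter core. RefSeq windows were matched for 8 of the 10 members, all but GAL and PENK. Each window covers 250 bases before the gene's RefSeq start (GRCh38.p14, written on the gene's own strand, positions counted back from that start). The RefSeq start can differ from the GENCODE 29 gene position given below. Of the CARTPT window 112 bases lie in GENCODE 29 exons, and of the SST window 5. Letters inside a GENCODE 29 exon are not shown, and each stretch is limited to 130 letters. Capitals mark the CRE (TGACGTCA), its core (TGACG, searched on both strands and contained in every CRE) and the TATA box (TATAAA, searched on the gene's strand). Some TATA boxes of the windows fall outside the printed letters. They lie 215 to 210 bases before the start of SST and 157 to 152 and 147 to 142 before that of VIP. In CARTPT the TATA box, 31 to 26 bases before the start, lies in an exon.
SST, minus strand, chr3:187670400-187670529: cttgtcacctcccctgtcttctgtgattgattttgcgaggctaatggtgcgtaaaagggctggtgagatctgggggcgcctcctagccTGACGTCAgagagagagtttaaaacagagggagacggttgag
CARTPT, plus strand, chr5:71719033-71719162: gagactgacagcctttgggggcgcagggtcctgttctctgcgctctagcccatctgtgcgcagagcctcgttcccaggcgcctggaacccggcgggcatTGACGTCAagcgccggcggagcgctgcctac
VIP, plus strand, chr6:152750667-152750796: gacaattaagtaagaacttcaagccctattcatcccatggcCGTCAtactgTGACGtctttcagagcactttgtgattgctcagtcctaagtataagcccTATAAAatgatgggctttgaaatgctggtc

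The whole CRE was found in the windows of SST (47 to 40 bases before the RefSeq start) and CARTPT (143 to 136 bases before its RefSeq start). No other member's window held it. Of 35116 RefSeq windows of that length, 1.65% hold it. The core alone occurred at 89 to 85 and at 79 to 75 bases before the start of VIP, against 21.2% of all windows. It also occurred in the window of TAC1 and in window 2, but not window 1, of ADCYAP1. The windows of NPY, NMU and NPW held neither. The whole CRE thus lay upstream of SST and CARTPT, which rose. The core alone lay upstream of VIP and ADCYAP1, which fell, and of TAC1, which was not detected. PENK, which rose, and GAL, which fell, had no window, so the comparison covers few genes. A match describes the letters only, and a link to the changes was not tested.

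NPY encodes neuropeptide Y, the vasoconstrictor co-transmitter of sympathetic nerves (ENSG00000122585, chromosome 7, 24284163 to 24291865, plus strand, GRCh38). It had 36.6 and 39.1 CPM in the shScb libraries and 10.9 and 11.4 CPM in the shTTC8 libraries. Both shTTC8 values lie below both control values, and the gap is far wider than the spread within either group. With shTTC8, NPY dropped from 37.9 ± 1.79 to 11.1 ± 0.380 CPM (SD, n = 2; log2 change -1.77 with SE 0.09, edgeR adjusted p = 7.24e-09), to 0.294 of its control level.

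VIP, the precursor of vasoactive intestinal peptide (ENSG00000146469, chromosome 6, 152750798 to 152759765, plus strand), had 723 and 716 counts in shScb and 194 counts in each shTTC8 library. That is 14.3 and 13.2 CPM against 4.99 and 4.69 CPM, without overlap. VIP fell from 13.7 ± 0.799 to 4.84 ± 0.218 CPM (SD, n = 2; edgeR adjusted p = 9.71e-07), to 0.352 of control. ADCYAP1 encodes PACAP, a peptide closely related to VIP that shares receptors with it (ENSG00000141433, chromosome 18, 904943 to 912172, plus strand). Its 115 and 96 counts in shScb stood against 15 and 9 counts in shTTC8. It went from 2.02 ± 0.360 to 0.302 ± 0.119 CPM (SD, n = 2; log2 change -2.74 with SE 0.38, edgeR adjusted p = 6.20e-05), the deepest fall among the members. ADCYAP1 shares 506 exonic bases with a transcript on the other strand that had 14.9% of its counts, and reads of the pair cannot be told apart in libraries that do not mark strand.

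Smaller falls were seen for NPW and GAL. NPW encodes neuropeptide W, a ligand of the NPBW receptors (ENSG00000183971, chromosome 16, 2009926 to 2020755, plus strand). It had 5.46 and 5.26 CPM in shScb and 2.96 and 3.72 CPM in shTTC8, a log2 change of -0.68 (SE 0.19, edgeR adjusted p = 0.0126). GAL, the galanin precursor (ENSG00000069482, chromosome 11, 68683779 to 68691175, plus strand), had 353 and 384 CPM in shScb and 296 and 320 CPM in shTTC8. Its groups do not overlap but lie close, and GAL fell by 0.26 on the log2 scale (SE 0.07, edgeR adjusted p = 0.00726). Both calls rest on shTTC8 replicate 1. Without that library the edgeR adjusted p was 0.122 for NPW (log2 fold change -0.53; 0.0057 to 0.122 over all alternatives) and 0.150 for GAL (log2 fold change -0.20; 4.59e-06 to 0.150 over all alternatives).

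NMU, the precursor of neuromedin U, a peptide of gut contraction and feeding control (ENSG00000109255, chromosome 4, 55595229 to 55636698, minus strand), had 12.9 and 11.6 CPM in shScb and 9.65 and 11.1 CPM in shTTC8. The shTTC8 values were the lower, by less than the test could separate from the spread within the groups (log2 change -0.24 with SE 0.12, edgeR adjusted p = 0.170). TAC1, which encodes substance P (ENSG00000006128, chromosome 7, 97731908 to 97740472, plus strand), was not detectable at this depth. A count of 0 allows up to 3 counts, or 0.0552 to 0.0772 CPM depending on the library, and this limit covers counting error only.

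SST encodes somatostatin, an inhibitor of hormone and transmitter release (ENSG00000157005, chromosome 3, 187668906 to 187670399, minus strand). It had 0 counts in both shScb libraries, against 262 and 243 counts with shTTC8, or 6.75 and 5.87 CPM. Against a floor of 3 counts per library, SST was at least 98.9-fold higher in shTTC8 (edgeR adjusted p = 5.96e-09). CARTPT, the precursor of the CART peptides (ENSG00000164326, chromosome 5, 71719163 to 71721048, plus strand), likewise had 0 counts in both shScb libraries. In shTTC8 it had 54 and 65 counts (1.39 and 1.57 CPM), at least 23.4-fold above the same floor (edgeR adjusted p = 3.18e-06). Both shTTC8 libraries carried each transcript at similar levels although they were sequenced less deeply than the controls.

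Such an all-or-none pattern was rare in the table. Only 5 of 64252 gene IDs had 0 counts in both shScb libraries and at least 30 counts in each shTTC8 library, and SST had the highest lower count of them (243), and CARTPT (54) stood above 1 other. The converse, 0 counts in both shTTC8 libraries and at least 30 in each shScb library, held for 3 gene IDs. The pattern and its minimum of 30 counts were chosen after these values had been seen.

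PENK encodes proenkephalin, the source of the enkephalins, which act on opioid receptors (ENSG00000181195, chromosome 8, 56436674 to 56446734, minus strand). It had 22 and 25 counts in shScb and 59 and 41 counts in shTTC8. PENK rose from 0.448 ± 0.0175 to 1.25 ± 0.374 CPM (SD, n = 2; log2 change 1.48 with SE 0.39, edgeR adjusted p = 0.00918). The shTTC8 libraries differ between themselves more than the controls do, and both lie above them. The call was lost without shTTC8 replicate 1 (log2 fold change 1.14, edgeR adjusted p = 0.117) and by DESeq2 (adjusted p = 0.0596), within a range of 0.00281 to 0.117 over all alternatives.

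Compared per kilobase of exon (CPM per kilobase), GAL was by far the most abundant precursor in both groups, at 283 ± 16.8 in shScb and 237 ± 13.2 in shTTC8 (SD, n = 2). In shScb it was followed by NPY at 41.1, NMU at 12.6, VIP at 8.67, NPW at 4.59, ADCYAP1 at 0.531 and PENK at 0.130 CPM per kilobase. Each of these neighbours in the order was separated by more than the range of its libraries. In shTTC8 NPY at 12.1, NMU at 10.7 and SST at 10.2 CPM per kilobase came next to each other. The ranges of NMU and SST overlap, so that those neighbours do not differ beyond their spread. VIP at 3.06 and NPW at 2.86 CPM per kilobase overlap as well, followed by CARTPT at 1.22, PENK at 0.363 and ADCYAP1 at 0.0793. By this measure SST went from no counts to a level near that of NMU, and ADCYAP1 became the lowest of the 9 detected. The nearness to NMU depends on the length used. By its longest transcript NMU has 816 bases rather than 975, and SST has 618 either way, which sets NMU further above SST.

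**Figure D2:**
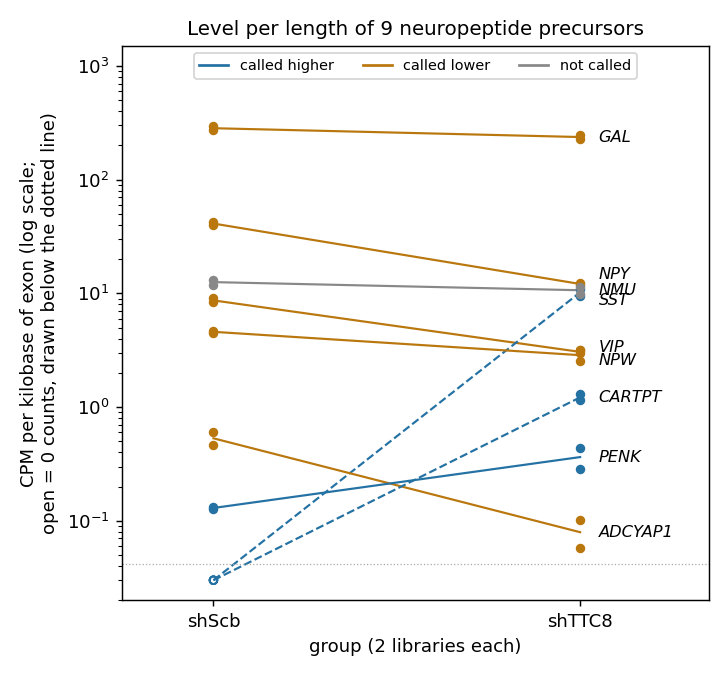
Level of 9 precursors as CPM per kilobase of exon on a log axis in shScb and shTTC8, with 1 point per library and lines joining the group means; dashed lines start from 0 counts. SST reaches 10.2 CPM per kilobase in shTTC8, near NMU at 10.7 by this measure of length, while NPY drops from 41.1 to 12.1.

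Summed over the 10 genes, precursor transcripts made up 425 and 455 CPM in the shScb libraries and 335 and 360 CPM in the shTTC8 libraries. GAL supplied 83.1% and 84.3% of that sum in shScb and 88.5% and 89.0% in shTTC8. Without GAL the sum was 72.0 and 71.4 CPM in shScb and 38.5 and 39.6 CPM in shTTC8, so the gains of SST, CARTPT and PENK were smaller in CPM than the losses of NPY and VIP. Control libraries held counts for 7 of the 10 precursors and shTTC8 libraries for 9.

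Receptors of these peptides were sparse. Of 25 listed receptor genes, 8 passed the low-count filter and 5 had 0 counts in every library. Of the 8, 1 was called higher and 3 lower, beside 15.2% and 16.7% of all tested genes. Their median log2 fold change was -0.37, against 0.004 over all tested genes. NPY2R, the presynaptic Y2 receptor for NPY, had 174 and 190 counts in shScb and 61 in each shTTC8 library. Like its ligand it was lower in shTTC8, from 3.47 ± 0.0377 to 1.52 ± 0.0685 CPM (SD, n = 2; log2 change -1.19 with SE 0.23, edgeR adjusted p = 0.00122). An antisense gene that shares 66 exonic bases with NPY2R had 10.5% of its counts. NPY1R and NPY5R had 0 counts in all 4 libraries, and NPY4R at most 6.

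The somatostatin receptors moved in both directions as SST appeared. SSTR1 had 3.58 and 2.87 CPM in shScb and 1.60 and 1.47 CPM in shTTC8, and fell by 1.07 on the log2 scale (SE 0.24, edgeR adjusted p = 0.00363). SSTR2, the receptor used for somatostatin imaging of neuroendocrine tumours, had 6.25 and 5.63 CPM in shScb and 4.51 and 3.60 CPM in shTTC8 (log2 change -0.55 with SE 0.18, edgeR adjusted p = 0.0309). That call was lost in 4 of 13 alternatives, with an adjusted p up to 0.243 without shTTC8 replicate 2 and 0.110 without shScb replicate 1 (0.0197 to 0.243 over all alternatives). SSTR3, a somatostatin receptor known to reside in the membrane of primary cilia, where its place is known to depend on BBSome proteins, had 10 and 28 counts in shScb and 45 and 64 in shTTC8. It rose by 1.91 on the log2 scale (SE 0.45, edgeR adjusted p = 0.00446), and its shScb libraries differ more than the shTTC8 libraries in relative terms. Leaving out shScb replicate 2 gave a log2 change of 2.76, and leaving out shScb replicate 1 gave 1.39. SSTR3 passed the low-count filter through the shTTC8 libraries alone, a route that favours genes higher there and limits its call. SSTR4 had 0 counts throughout and SSTR5 at most 2.

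The receptors with the most transcripts did not pass the test. ADCYAP1R1, the PACAP receptor, had 23.8 and 24.2 CPM in shScb and 22.3 and 20.0 CPM in shTTC8 (log2 change -0.18 with SE 0.09, edgeR adjusted p = 0.159). OPRD1, the delta opioid receptor for enkephalins, had 22.9 and 23.6 CPM in shScb and 20.6 and 22.0 CPM in shTTC8 (log2 change -0.13 with SE 0.09, edgeR adjusted p = 0.333). VIPR2, a receptor for VIP and PACAP, had 26 and 56 counts in shScb and 16 and 6 in shTTC8 (log2 change -1.48 with SE 0.56, edgeR adjusted p = 0.0577). It was called without shScb replicate 1 (edgeR adjusted p = 0.00818), without shTTC8 replicate 1 (edgeR adjusted p = 0.0155) and with the replicate number as a block (edgeR adjusted p = 0.0295), within a range of 0.00818 to 0.419. GALR3 was the only galanin receptor to pass the filter, through the shTTC8 libraries alone. It had 9 and 14 counts in shScb and 13 and 22 in shTTC8 (edgeR adjusted p = 0.226). Receptors for substance P, neuromedin U and neuropeptide W stayed under the filter, with at most 25 counts in a library.

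**Figure D3:**
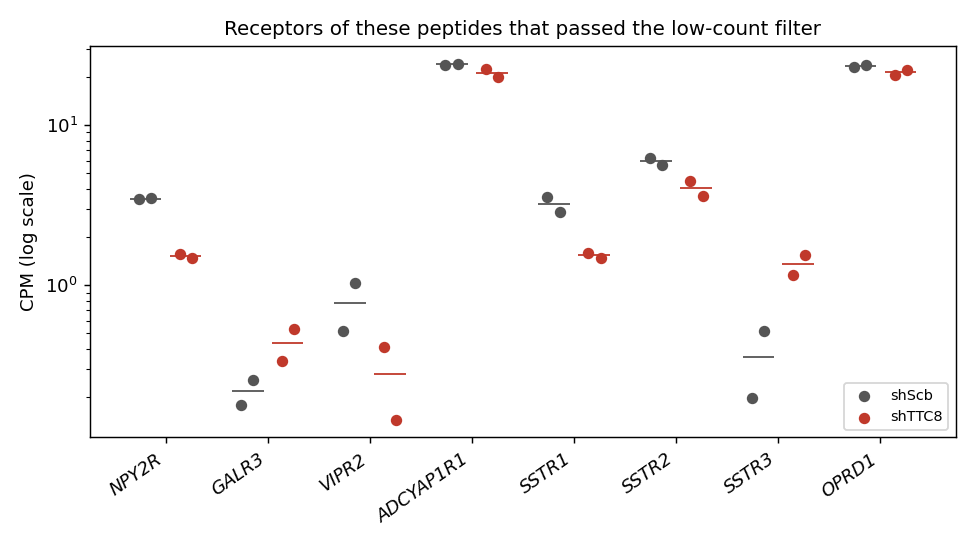
CPM on a log axis of the 8 receptor genes that passed the low-count filter, with 1 point per library and a line at each group's mean. ADCYAP1R1 and OPRD1 stay above 19 CPM in every library, SSTR1, SSTR2 and NPY2R are lower in shTTC8, and SSTR3 is higher.

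The machinery that turns precursors into peptides was abundant and changed in both directions. Of 17 tested genes for prohormone cleavage, amidation and granule sorting, 9 were called higher, 3 lower and 5 were not called. All tested genes gave 15.2% higher and 16.7% lower. The median log2 fold change of the list was 0.55, beside 0.004 over all tested genes. CPE, which trims basic residues after cleavage, rose from 421 ± 8.29 to 624 ± 10.8 CPM (SD, n = 2; log2 change 0.57 with SE 0.06, edgeR adjusted p = 4.43e-06). PAM, the amidating enzyme needed for mature NPY, VIP and PACAP, fell by 0.41 (SE 0.07, edgeR adjusted p = 3.60e-04). Among the granins, CHGA fell from 711 ± 72.5 to 517 ± 16.3 CPM (SD, n = 2; edgeR adjusted p = 2.04e-04), and this gene was named after its values had been seen. The granule proteins CHGB and SCG3 rose by 1.41 (SE 0.06) and 0.69 (SE 0.07), the convertase inhibitor PCSK1N rose by 1.07 (SE 0.07), and the carboxypeptidase CPD fell by 0.87 (SE 0.08). The neuroendocrine convertases themselves were scarce. PCSK1 had 67 and 42 counts in shScb and 58 and 62 in shTTC8 and was not called (edgeR adjusted p = 0.273), and PCSK2 had at most 17 counts in a library and was not tested.

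Other peptide precursors gave few calls. Of 49 listed genes, 15 passed the filter and 14 had 0 counts in every library. By edgeR 3 were called lower and none higher (1 higher at an unadjusted p under 0.05, and 0 by DESeq2 and by limma-voom), with a median of -0.21. The lower genes were ADM, which encodes the vasodilator adrenomedullin, from 30.2 ± 1.45 to 16.7 ± 0.400 CPM (SD, n = 2), its relative ADM2 (log2 change -1.15 with SE 0.26) and APLN, the apelin precursor (log2 change -1.14 with SE 0.26). Of 9 tested peptidases that cleave released peptides, 1 was called higher and 4 lower (median -0.18). The endopeptidase gene NLN fell by 0.43 (SE 0.07) and ACE, the angiotensin-converting enzyme, fell by 0.46 (SE 0.09), while DPP3 rose by 0.43 (SE 0.07). ANPEP changed by -0.87 (SE 0.28, edgeR adjusted p = 0.0273), a call lost without shTTC8 replicate 1 (edgeR adjusted p = 0.237) and without shScb replicate 2 (edgeR adjusted p = 0.0647), within a range of 0.00671 to 0.237. Over receptors, other precursors, processing genes and peptidases together, 11 of 49 tested genes were called higher and 13 lower, beside 15.2% and 16.7% of all tested genes.

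**Figure D4:**
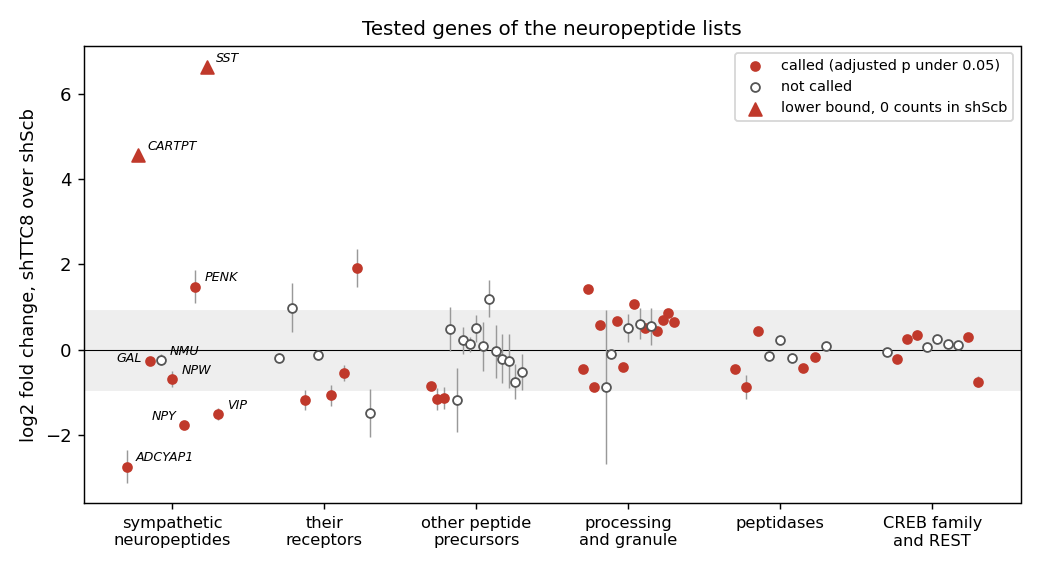
Log2 fold change of shTTC8 over shScb for the tested genes of each list, with bars of 1 SE; filled points were called by edgeR, triangles are lower bounds for SST and CARTPT, and the grey band spans the 5th to 95th percentile of all tested genes (-0.95 to 0.90). ADCYAP1, NPY, VIP, PENK, SST and CARTPT lie outside the band, and the CREB family and REST inside it.

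Of 10 tested CREB family members, CREB coactivators and the repressor REST with its corepressor, 3 were called higher and 2 lower (median 0.12). Among all tested genes 15.2% were called higher and 16.7% lower. REST, which holds neuronal genes silent in other cells, had 12.7 and 12.0 CPM in shScb and 7.72 and 6.86 CPM in shTTC8 (log2 change -0.76 with SE 0.13, edgeR adjusted p = 3.99e-04). REST shares 23 exonic bases with NOA1, a gene with 987% of its counts. RCOR1, the REST corepressor, rose by 0.31 (SE 0.07). CREB1 had 66.5 and 61.0 CPM in shScb and 56.9 and 52.9 CPM in shTTC8 (log2 change -0.22 with SE 0.07, edgeR adjusted p = 0.0384), a call lost without shScb replicate 1 (edgeR adjusted p = 0.134), shTTC8 replicate 1 (0.0825) or shTTC8 replicate 2 (0.325), within a range of 0.00239 to 0.325. CREM rose by 0.34 (SE 0.11; edgeR adjusted p = 0.0315), a result lost without shScb replicate 2 (0.181), shTTC8 replicate 1 (0.116) or shTTC8 replicate 2 (0.124), within a range of 0.00885 to 0.181. The coactivator gene CREBBP rose by 0.24 (SE 0.08; edgeR adjusted p = 0.0258), a result lost without shTTC8 replicate 1 (0.444), with no low-count filter (0.0911) and by limma-voom (0.0546), within a range of 0.00413 to 0.444.

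The members lie on 9 chromosomes, with only NPY and TAC1 on the same one. Of the 20 protein-coding genes nearest to them on either side, 14 were tested. EdgeR called 6 lower and none higher, beside 16.7% and 15.2% of all tested genes. At an unadjusted p under 0.05 edgeR had 1 higher, and DESeq2 and limma-voom called 0 higher. The flanking genes RTP4 and RTP2 of SST had 0 counts in all 4 libraries. MCCC2 and MAP1B, which flank CARTPT, changed by -0.38 (SE 0.06) and -0.05 (SE 0.06). With 0 counts, RTP4 and RTP2 tell nothing about the surroundings of SST, and a local cause was not tested. These neighbours were listed after the members' values had been seen.

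The summed levels of markers of other cell types were lower in shTTC8, whereas the members went both ways. Fibroblast and endothelial markers summed to 495 and 476 CPM in shScb and 236 and 226 CPM in shTTC8, and all 7 tested of 10 were called lower by edgeR, with none higher by edgeR at an unadjusted p under 0.05, DESeq2 or limma-voom. Among the 7, VWF passed the filter through the shScb libraries alone. For these marker lists the share over all tested genes was 16.7% called lower and 15.2% higher. PECAM1 was at 0 counts in every library. Schwann cell and glial markers summed to 36.1 and 37.8 CPM in shScb and 15.2 and 13.7 CPM in shTTC8, with SOX10 and FOXD3 at 0 counts, 1 of 4 tested called lower and none higher (0 at an unadjusted p under 0.05 and by either other tool). Blood cell and epithelial markers summed to 23.7 and 23.1 CPM in shScb and 10.6 and 10.4 CPM in shTTC8, with CD3E and CDH1 at 0 counts, 2 of 5 tested called lower and none higher (1 at an unadjusted p under 0.05, 0 by either other tool). Their part in the falls of NPY, VIP and ADCYAP1 was not tested. All of these sums were lower in shTTC8, whereas SST, CARTPT and PENK were higher there.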

How the data were processed

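RNA-seq gene counts of 4 libraries were analysed. Per the labels' protocols, total RNA was taken with TRIzol and made into libraries with an Illumina TruSeq RNA kit, a kind that marks no strand. Alignment used HISAT2 2.2.0 on build hg38, per the submitters' processing notes. Counter and annotation were not given in the sources used here. Deposited values were whole-number counts per Ensembl gene that the authors had not normalized.

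Groups came from the sample titles. Symbols came from a gene name table or, failing that, GENCODE 29 (GRCh38, the assembly of hg38), which also gave positions and exon lengths. Counts were filtered with filterByExpr (19610 genes kept), scaled by TMM and tested in R 4.3.3 with edgeR 4.0.16 (robust quasi-likelihood, two-sided). Benjamini-Hochberg adjusted p-values over these 19610 genes were called under 0.05. SE is the log2 change divided by the square root of F. The scripts were tested on simulated data. Alternatives were other scalings and filters, non-robust fitting, DESeq2 1.42.0, limma-voom (limma 3.58.1), thinned counts, the replicate number as a block, and each library left out. Replicates correlated at r = 0.987 (shScb) and 0.986 (shTTC8) across genes, and a chi-square per degree of freedom of 11.4 and 6.40 put their differences above sampling noise. Beyond TTC8, the members and the receptors tested, up to 4 called genes of each other list by smallest p were named, with a fixed set of enzymes and regulators. The members and lists were chosen with earlier results of these data known.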

Additional observations from a re-analysis of the deposited data

How the results depend on the processing

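Among the precursors, the calls of NPY, VIP and ADCYAP1 held in all 13 alternatives, and those of GAL, NPW and PENK did not. SST and CARTPT, at 0 counts in shScb, had to differ, so their calls say nothing about stability. The number of precursors called higher was 2 to 3 and the number called lower 3 to 5 when each library was left out in turn, with 3 lower without shTTC8 replicate 1. Over all tested genes, leaving out each library gave 1880 to 3395 higher and 2383 to 3555 lower. Over the named genes other than TTC8, 488 of the refitted log2 fold changes stayed on their side of the threshold, 35 lost and 3 gained a call, and none changed direction with a call. With the replicate number as a block, 3 precursors were called higher and 5 lower and all tested genes gave 3092 higher and 3343 lower; the deviations of same-numbered libraries correlated at 0.0317, and with 2 libraries per group the numbers are not known to pair them. Counts per kilobase of the longest transcript moved 2 precursors from their rank in shTTC8, leaving 8 of 10. Over the alternatives the regulators gave 1 to 4 higher and 1 to 3 lower, peptidases 1 to 2 higher and 2 to 4 lower, receptors 1 to 2 higher, other precursors 0 to 1 higher and cholinergic genes 0 to 2 higher. The cause of the lost calls was not tested. Depth limits GALR3, SSTR3, VIPR2, PENK and ADCYAP1, since each had fewer than 30 counts in at least 1 library.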

Other observations

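Of the 5 gene IDs with 0 counts in both shScb libraries and at least 30 in each shTTC8 library, another belongs to peptide signalling. PRLHR, the receptor for prolactin-releasing peptide (chromosome 10, 118589989 to 118595699, GRCh38), had 133 and 148 counts in the shTTC8 libraries, or 3.42 and 3.58 CPM (edgeR adjusted p = 5.92e-08). The others were PPAN-P2RY11, a read-through of neighbouring genes which had 176 and 523 counts in shTTC8 and was not called (edgeR adjusted p = 0.170), and an ID without a name. In the opposite direction the 3 gene IDs were the read-throughs INO80B-WBP1 and BLOC1S5-TXNDC5 and the intronic transcript AC024075.1, so no single-locus protein-coding gene was among them. These genes were chosen after their values were seen.

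Levels of 4 listed genes of cholinergic transmission, the state in which sympathetic neurons are known to make VIP, were read beside VIP. Their part in its fall was not tested. SLC5A7 had 6 and 10 counts in shScb and 4 and 5 in shTTC8 and stayed under the filter. ACHE had 19 and 48 counts in shScb and 33 and 35 in shTTC8 and was not called (edgeR adjusted p = 0.517). CHAT, which makes acetylcholine, had 1 and 0 counts in shScb and 10 and 11 in shTTC8 (edgeR adjusted p = 0.00881). That call was lost without shScb replicate 2. CHAT passed the low-count filter through the shTTC8 libraries alone, a route that favours genes higher there and limits its call. SLC18A3, the vesicular acetylcholine transporter, had 4.41 and 4.69 CPM in shScb and 5.72 and 7.13 CPM in shTTC8 (log2 change 0.50 with SE 0.17, edgeR adjusted p = 0.0419, and 0.0279 to 0.345 over the alternatives). SLC18A3 was no longer called without shTTC8 replicate 2 (edgeR adjusted p = 0.345) and without shScb replicate 1 (edgeR adjusted p = 0.109). Of 3 tested genes in that list, 2 were called higher by edgeR, against 1 by limma-voom and 0 by DESeq2, which gave CHAT no adjusted p, and 0 to 2 over the alternatives, with 0 without shTTC8 replicate 2. None was called lower (0 lower at an unadjusted p under 0.05, by DESeq2 and by limma-voom). Among all tested genes edgeR called 15.2% higher and 16.7% lower.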
